A study of Homo sapiens with 4 samples.

Results

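Integrins and laminins were examined in the human embryonic stem cell line RUES2 after 5 days of cardiac differentiation (day 5), a stage that the labels call cardiovascular progenitor. The members are all genes whose annotated symbol starts with ITGA, ITGB, LAMA, LAMB or LAMC followed by a digit, together with ITGAV. The array annotation held 35 such genes among 20046 named genes. Of these, 31 encode subunits, 21 of integrins and 10 of laminins. The other 4 carry matching symbols without encoding a subunit. ITGB1BP1 and ITGB1BP2 encode proteins that bind the integrin beta1 tail, ITGB3BP encodes a centromere protein that also binds the beta3 tail, and LAMB2P1 is a laminin pseudogene.

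The cells had received lentivirus carrying a short hairpin RNA (shRNA) while undifferentiated, had been selected with puromycin and had then been differentiated, in both groups alike. There were 4 Illumina bead arrays. A control shRNA was carried by the cells of 2 of them, called control 1 and control 2. The other 2 arrays, 1 with hairpin 691 and 1 with hairpin 94, held RNA of cells whose shRNA targeted TMEM88, which encodes a transmembrane protein known to act on the Wnt pathway. The TMEM88 shRNA group therefore holds 2 different hairpins, and its spread includes their difference. The labels do not name separate cultures, and p-values therefore cover only the spread among these 4 samples, which may be technical.

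Laminins are basement membrane proteins built as trimers of 1 alpha, 1 beta and 1 gamma chain. The trimer of the alpha1, beta1 and gamma1 chains belongs to the earliest basement membranes of the embryo, and alpha5 takes the place of alpha1 in many later ones. Integrins are cell surface receptors made of an alpha and a beta chain, which bind laminins, collagens, fibronectin and other matrix proteins outside the cell and the actin cytoskeleton through adaptor proteins inside it. Cells that pass through the primitive streak lose contact with a basement membrane and then move on fibronectin-rich matrix, and the receptor of the alpha5 and beta1 chains binds fibronectin.

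LAMC1 and LAMB1 encode chains of the same trimer, and their measured differences had opposite signs by the brightest probe of each gene. A second LAMB1 probe gave -0.05, the sign of LAMC1. ITGA5 had the largest difference among integrin genes detected on all 4 arrays. No promoter sequence was available for LAMA1. The promoters of LAMC1, LAMB1 and ITGA5 are shown as the 250 bases before the gene start. They are RefSeq sequences of build GRCh38.p14, 5′ to 3′ on the gene's strand, with capitals marking GGGCGG, the GC box letters, on either strand. LAMC1 lies on the plus strand (chr1:183023170-183023419), LAMB1 on the minus strand (chr7:108003162-108003411) and ITGA5 on the minus strand (chr12:54419267-54419516).
LAMC1: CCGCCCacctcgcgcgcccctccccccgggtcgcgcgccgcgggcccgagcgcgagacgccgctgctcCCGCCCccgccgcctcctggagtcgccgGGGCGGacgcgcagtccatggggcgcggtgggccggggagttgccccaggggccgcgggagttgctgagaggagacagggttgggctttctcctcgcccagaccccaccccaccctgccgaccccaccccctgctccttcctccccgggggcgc
LAMB1: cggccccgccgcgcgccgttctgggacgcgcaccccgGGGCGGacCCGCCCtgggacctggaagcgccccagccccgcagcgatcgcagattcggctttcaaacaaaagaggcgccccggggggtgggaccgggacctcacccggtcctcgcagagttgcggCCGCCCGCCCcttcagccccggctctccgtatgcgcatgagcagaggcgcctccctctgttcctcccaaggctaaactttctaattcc
ITGA5: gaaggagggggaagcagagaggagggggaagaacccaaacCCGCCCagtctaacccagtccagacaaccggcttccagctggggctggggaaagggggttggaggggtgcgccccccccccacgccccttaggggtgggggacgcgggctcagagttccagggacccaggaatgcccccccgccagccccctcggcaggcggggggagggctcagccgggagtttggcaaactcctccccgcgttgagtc
The GC box letters occurred 3 times in the LAMC1 window, 4 times in that of LAMB1, of which 2 overlap, and once in that of ITGA5. Of 27305 promoters of the same length, 42.3% held them. Of the 26 members with a promoter sequence, 12 did, among them 9 of the 12 tested ones. The tested members were selected by detection. The share among all tested genes was not computed, so 42.3% is not a like background for them. The letters CTTTGA, the core of the sites of TCF and LEF factors, were found on either strand in 3 of the 26 windows, none of them that of a tested member, and in 11.4% of all promoters. Such a match is a description of the letters and says nothing about binding.

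The targeted gene was measured first. The TMEM88 scanner signals were 2292.8 in control 1 and 2987 in control 2, against 360.7 under hairpin 691 and 1329.7 under hairpin 94. Relative to the mean of the controls on the log2 scale, TMEM88 was at 9.62% under hairpin 691 (limma adjusted p = 0.0146) and at 52.9% under hairpin 94 (limma adjusted p = 0.591), so its fall passed the test with hairpin 691 only, and the difference between the hairpins did not pass. With both hairpins against both controls, TMEM88 had a difference of -2.15 ± 0.71 and did not pass (limma adjusted p = 0.187). Of the 47322 probes on an array, 15300 to 16516 were detected, and median signals ran from 130.9 to 135.7. The small number of arrays limits the precision.

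A probe counted as detected on an array at a detection p under 0.01. A gene was tested where a probe was detected on 2 or more arrays, and its brightest such probe stood for it. Of the 35 members 18 passed, among 10377 genes in all, 10 of them integrin subunits, 6 laminin chains and 2 genes that encode no subunit. Of the 18, 13 were detected on all 4 arrays. A further 4 members were detected on 1 array each, namely the collagen receptor chains ITGA2 and ITGA11 and the platelet chain ITGA2B with shRNA 691, and ITGB4, a partner of the alpha6 chain, in control 1.

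The remaining 13 members were detected on no array. Among them were ITGA6, a laminin receptor chain represented by 3 probes, the collagen receptor chains ITGA1 and ITGA10, and the beta chains ITGB3, ITGB6, ITGB7 and ITGB8. The laminin chains LAMA2, LAMA4, LAMB3 and LAMB4 were undetected too, as were ITGB1BP2 and LAMB2P1. A probe without detection does not show that its gene is silent. Of the alpha chains of leukocytes, which lie outside the rule, ITGAE was detected on all 4 arrays, and ITGAD, ITGAL, ITGAM and ITGAX on none.

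The comparison asked which integrin and laminin genes differed between cells with TMEM88 hairpins and control cells. None of the 18 tested members passed limma's moderated test at an adjusted p of 0.05 over all genes, where 205 of 10377 genes (1.98%) did. At an unadjusted p under 0.05 there were 4 members, against 18.3% of all genes. Of these, LAMA1 and LAMC1 were lower, as were 8.81% of all genes on the same terms, and ITGA5 and ITGA8 were higher, as were 9.53%. ITGA8 was detected on no control array and entered the test through the TMEM88 shRNA arrays alone. Such entry favours a higher level on those arrays, so ITGA8 adds nothing to this count. The nearest to the threshold was LAMA1, the alpha chain of the earliest laminin, which had a log2 difference of -1.30 ± 0.24 (here and below the SE of the fit, with n = 2 per group), which is 2.45-fold lower, with a limma adjusted p of 0.0524. ITGA5, the alpha chain of the main fibronectin receptor, was 2.22-fold higher (log2 difference 1.15 ± 0.26, limma adjusted p = 0.0868). In bulk RNA, fewer cells of a type and less RNA per cell cannot be told apart.

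The groups did not overlap for 12 of the 18 members (66.7%), against 50.2% of all tested genes. Both TMEM88 shRNA arrays were higher for 7 members, against 25.2% of all genes, and lower for 5, against 24.9%. ITGA8 is 1 of the 7. The median log2 difference over the 18 was 0.06, against 0.00 over all tested genes, and the median size of the difference, regardless of sign, was 0.33 against 0.30. Differences of at least 1 on the log2 scale were seen in 7.16% of all genes and in 3 members detected on all 4 arrays (LAMA1, ITGA5 and LAMC3). The fitted difference of ITGA8 was above 1 too, but with undetected controls its size is not established. These shares describe members chosen with earlier results known and were not tested against each other. The 2 controls lay more than 0.5 apart on the log2 scale for 6 members, ITGA3, ITGA7, ITGA8, ITGA9, LAMB1 and LAMC3. With 2 arrays per group the test reached large differences only: the smallest called among all genes was 1.23 on the log2 scale.

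**Figure D1:**
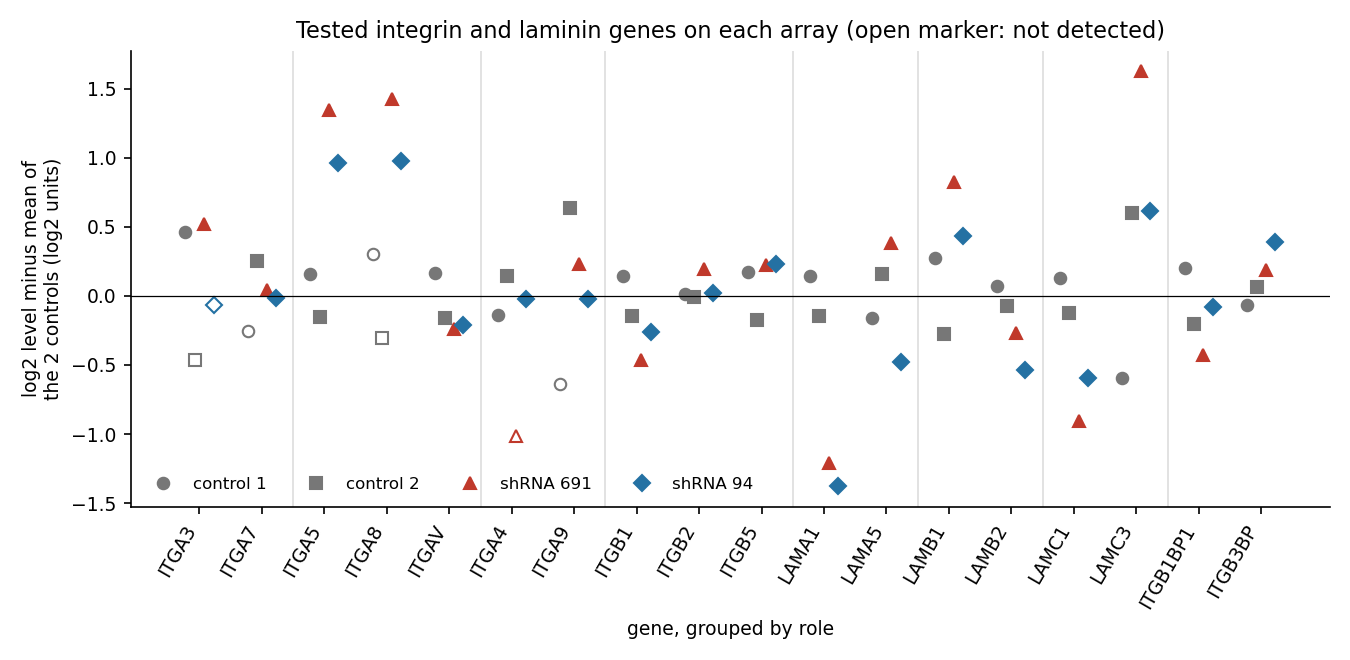
Normalized log2 level of each of the 18 tested genes on each array, minus the mean of the 2 controls for that gene, in log2 units; genes are grouped by role, and an open marker means that the probe was not detected on that array. Both TMEM88 shRNA arrays lie below both controls for LAMA1 and LAMC1 and above both for ITGA5 and ITGA8, while ITGA9 and LAMC3 show controls more than 1 unit apart.

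Among the laminin alpha chains, LAMA1 and LAMA5 were detected on all 4 arrays. The scanner signals of LAMA1 were 1563.1 in control 1 and 1278.5 in control 2, against 675 under hairpin 691 and 559.1 under hairpin 94. Both TMEM88 shRNA arrays thus lay well below both controls. After normalization LAMA1 stood at log2 levels of 10.46 in control 1 and 10.16 in control 2, against 9.10 under hairpin 691 and 8.93 under hairpin 94. The 95% interval of its difference ran from -1.86 to -0.73, and its unadjusted p of 0.00109 ranked 215th, just past the 205 called genes, whose largest unadjusted p was 0.000971.

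A second LAMA1 probe gave a like difference. Its scanner signals were 534.1 in control 1 and 459.4 in control 2, against 270.3 under hairpin 691 and 236.2 under hairpin 94, and its log2 difference was -1.40 ± 0.24. When each detected probe was tested on its own, an alternative chosen after seeing the data, 276 of 13248 probes (2.08%) were called, among them both LAMA1 probes (limma adjusted p = 0.0491 and 0.0335). With a gene represented once, LAMA1 passed with no background correction (limma adjusted p = 0.0251) and with the deposited log2 values (limma adjusted p = 0.0212). The values behind these 2 fits are nearly the same. It also passed with detection on all 4 arrays, the mean of detected probes and a variance trend (limma adjusted p = 0.0443, 0.0413 and 0.0193). It did not with median scaling, a detection p under 0.05, no detection filter or robust variance (limma adjusted p = 0.0536, 0.0524, 0.114 and 0.0538). Under all 13 alternatives, which include leaving out each array, its log2 difference stayed between -1.44 and -1.13. Leaving out a TMEM88 shRNA array gives the same fit as the other hairpin alone against the controls. Against the controls the single hairpins gave LAMA1 differences of -1.21 (shRNA 691, limma adjusted p = 0.354) and -1.38 (shRNA 94, limma adjusted p = 0.287).

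LAMA5, the alpha chain of many later basement membranes, had a log2 difference of -0.05 ± 0.33. Its signals were 1918 in control 1 and 2309.1 in control 2, against 2647.1 under hairpin 691 and 1424.7 under hairpin 94. Control values thus lay between those of the hairpins, which stood 0.86 apart on the log2 scale. The test of that difference between hairpins gave an interval from -0.19 to 1.91 (limma adjusted p = 1).

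**Figure D2:**
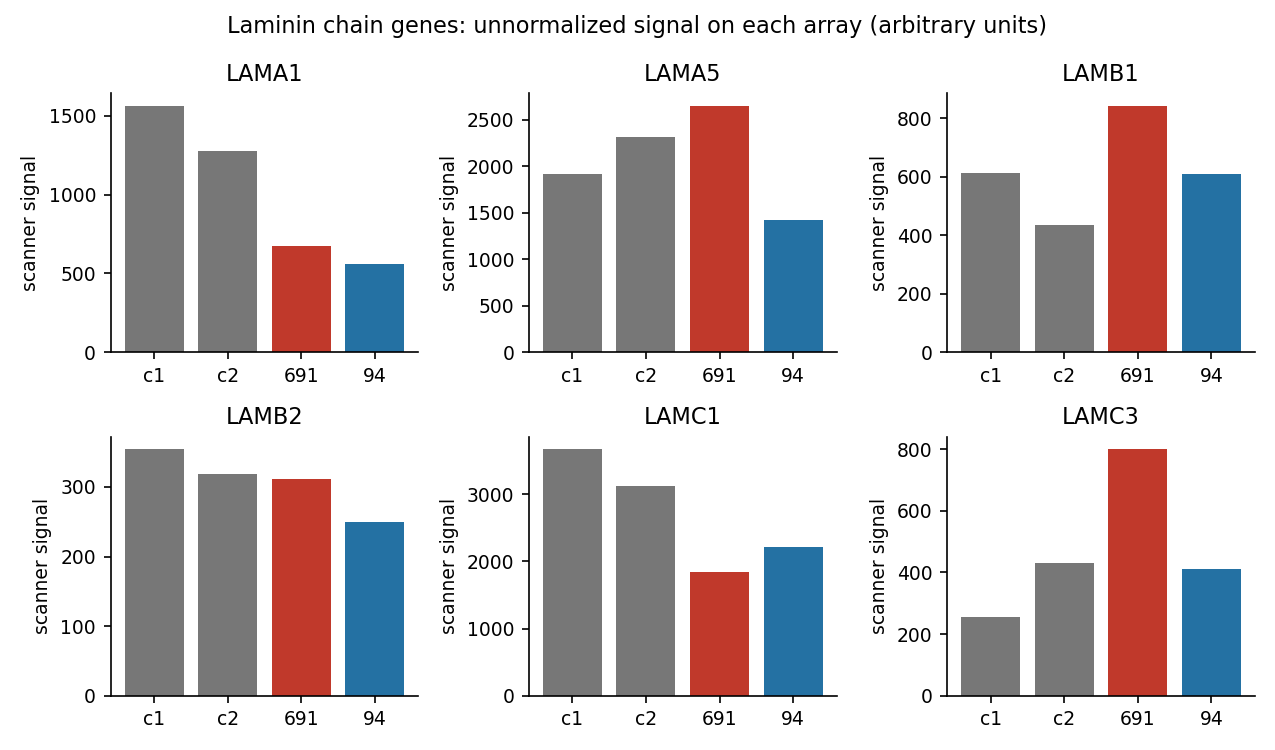
Scanner signal, not normalized and in arbitrary units, of the brightest detected probe of each of the 6 tested laminin chain genes on control 1 (c1), control 2 (c2), shRNA 691 and shRNA 94; bars start at 0 and each panel has its own scale. LAMA1 and LAMC1 show both TMEM88 shRNA arrays below both controls, and LAMA5 shows both controls between the 2 hairpins.

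Of the laminin beta chains, LAMB1, the partner of alpha1 in the earliest laminin, had signals of 611.7 in control 1 and 436.1 in control 2, against 842.3 under hairpin 691 and 609 under hairpin 94. Its normalized levels did not overlap, but those of control 1 (8.92) and shRNA 94 (9.08) were close. The log2 difference was 0.63 ± 0.29 (limma adjusted p = 0.305). The second LAMB1 probe, with signals between 169 and 184.6 on all arrays, gave -0.05 ± 0.23, so the probes of this gene disagree. LAMB2, the beta chain of muscle and kidney basement membranes, had a log2 difference of -0.40 ± 0.24 (limma adjusted p = 0.425), with an interval from -0.97 to 0.16.

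LAMC1, the gamma chain of most laminins, had signals of 3671.4 in control 1 and 3125.9 in control 2, against 1849.8 under hairpin 691 and 2208.4 under hairpin 94. Both TMEM88 shRNA arrays lay below both controls. The log2 difference was -0.75 ± 0.25, a 1.68-fold difference, with an interval from -1.33 to -0.16 and a limma adjusted p of 0.185. LAMC3, a gamma chain of a narrower range of tissues, had signals of 254.7 in control 1 and 431.5 in control 2, against 800 under hairpin 691 and 411.3 under hairpin 94. Its controls were 1.19 apart on the log2 scale, and after normalization control 2 (8.36) and shRNA 94 (8.38) were nearly equal. The LAMC3 difference was 1.12 ± 0.48 (limma adjusted p = 0.277). Leaving out 1 array moved it between 0.52 and 1.72, and without control 2 it passed (limma adjusted p = 0.0433).

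Taking the trimer of alpha1, beta1 and gamma1 as a unit, the alpha and gamma genes were lower with both hairpins and the beta gene was not. None of these 3 genes passed the test, and whether their differences differ from each other was not tested.

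Of 3 tested integrin alpha chains that recognise the RGD motif of fibronectin and vitronectin, none was called. ITGA5 and ITGA8 had positive differences and ITGAV a negative one, and the size of that of ITGA8 is not established. The ITGA5 signals were 696.5 in control 1 and 560.3 in control 2, against 1414.5 under hairpin 691 and 1029.3 under hairpin 94, and both TMEM88 shRNA arrays lay above both controls. The interval of the ITGA5 difference ran from 0.54 to 1.77. It was called under 2 of 13 alternatives, with a variance trend (limma adjusted p = 0.0443) and without control 1 (limma adjusted p = 0.0181). The single hairpins gave ITGA5 differences of 1.35 (shRNA 691, limma adjusted p = 0.289) and 0.96 (shRNA 94, limma adjusted p = 0.551).

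ITGA8, a receptor chain for nephronectin that is known from kidney development and smooth muscle, had signals of 146.3 in control 1 and 129.5 in control 2, against 206.6 under hairpin 691 and 168.2 under hairpin 94. It was detected on both TMEM88 shRNA arrays and on neither control, so the TMEM88 shRNA arrays alone brought it into the test. With the undetected controls raised to a floor, the ITGA8 level after the main background correction was 1.70-fold higher in the TMEM88 shRNA group. For this value each control array counts at its lowest detected signal, or at the signal of the ITGA8 probe where that is higher. It is a point value and not a minimum. The main fit, without this floor, gave an interval from 0.49 to 1.92 on the log2 scale (limma adjusted p = 0.11). Given how ITGA8 entered the test, this p-value is no separate support. The size depends on the background correction: the ITGA8 log2 difference was 1.20 in the main fit, 0.41 with no background correction and 0.43 in the deposited matrix. ITGAV, the alpha chain shared by several vitronectin and fibronectin receptors, had signals of 589.2 in control 1 and 476.1 in control 2, against 478.7 under hairpin 691 and 436.8 under hairpin 94. Its normalized levels were 8.86 and 8.53 in the controls against 8.46 and 8.49, a log2 difference of -0.22 ± 0.24 (limma adjusted p = 0.673).

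The laminin receptor chains ITGA3 and ITGA7 had low signals. ITGA3 was detected in control 1 (156.5) and with shRNA 691 (166.3) but not in control 2 (129.4) or with shRNA 94 (140.8), with a log2 difference of 0.23 ± 0.37. ITGA7, a chain of muscle, was undetected in control 1 and had a difference of 0.01 ± 0.26. The arrays of both groups overlapped for each of these genes.

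ITGA4, a receptor chain for fibronectin and for an endothelial adhesion molecule, had signals of 155.6 in control 1 and 166.3 in control 2, against 133.4 under hairpin 691, where it was undetected, and 158.1 under hairpin 94. Its log2 difference was -0.52 ± 0.36 (limma adjusted p = 0.498). The hairpins stood -0.99 apart for ITGA4, with an interval from -2.04 to 0.06. ITGA9, its closest relative among the alpha chains, had signals of 144.8 in control 1 and 199.5 in control 2, against 188 under hairpin 691 and 163.9 under hairpin 94. The controls of ITGA9 thus enclosed both TMEM88 shRNA arrays, and its difference was 0.11 ± 0.41.

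Of the 8 integrin beta chain genes, ITGB1, ITGB2 and ITGB5 were tested. ITGB1, the partner of most alpha chains named here, had signals of 4409.7 in control 1 and 3588.9 in control 2, against 2923 under hairpin 691 and 3277.5 under hairpin 94. This probe gave a log2 difference of -0.36 ± 0.24 (limma adjusted p = 0.487), with an interval from -0.94 to 0.21, and its groups did not overlap. A second ITGB1 probe, annotated to another transcript record, had signals of 943.1 in control 1 and 776.5 in control 2, against 1037.3 under hairpin 691 and 972.4 under hairpin 94. Its difference was 0.34 ± 0.24, with groups that did not overlap in the opposite direction. The difference between these probes was not tested.

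ITGB5, which pairs with alphaV in a vitronectin receptor, had signals of 2373.1 in control 1 and 1866.5 in control 2, against 2372.3 under hairpin 691 and 2327.2 under hairpin 94. Its log2 difference was 0.23 ± 0.24 (limma adjusted p = 0.67), and 2 further probes gave 0.38 ± 0.23 and 0.00 ± 0.24. ITGB2, the beta chain of leukocyte integrins, had signals of 258.3 in control 1 and 248.4 in control 2, against 288.6 under hairpin 691 and 242.6 under hairpin 94. Its difference was 0.11 ± 0.23, and its second probe gave 0.23 ± 0.35. Of the alpha chains that pair with ITGB2, the 4 named above were detected on no array.

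**Figure D3:**
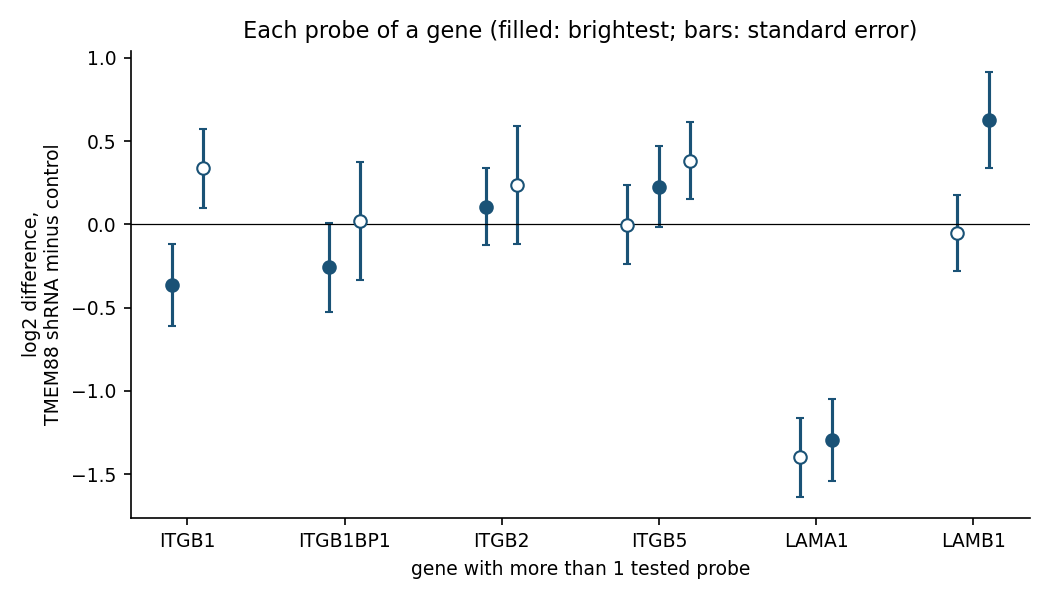
Log2 difference, TMEM88 shRNA minus control, of each tested probe of the 6 genes with more than 1 tested probe; bars are standard errors from the fit over all detected probes, and filled points are the brightest probe of the gene. The LAMA1 probes agree at -1.30 and -1.40, while the ITGB1 probes lie at -0.36 and 0.34 and the LAMB1 probes at 0.63 and -0.05.

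Of the genes named after integrins, ITGB1BP1 and ITGB3BP were detected on all 4 arrays and ITGB1BP2 on none. ITGB1BP1, whose product binds the beta1 tail and limits receptor activation, had a log2 difference of -0.26 ± 0.26 (limma adjusted p = 0.66), and its second probe gave 0.02 ± 0.36. ITGB3BP had a difference of 0.29 ± 0.23 (limma adjusted p = 0.564).

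**Figure D4:**
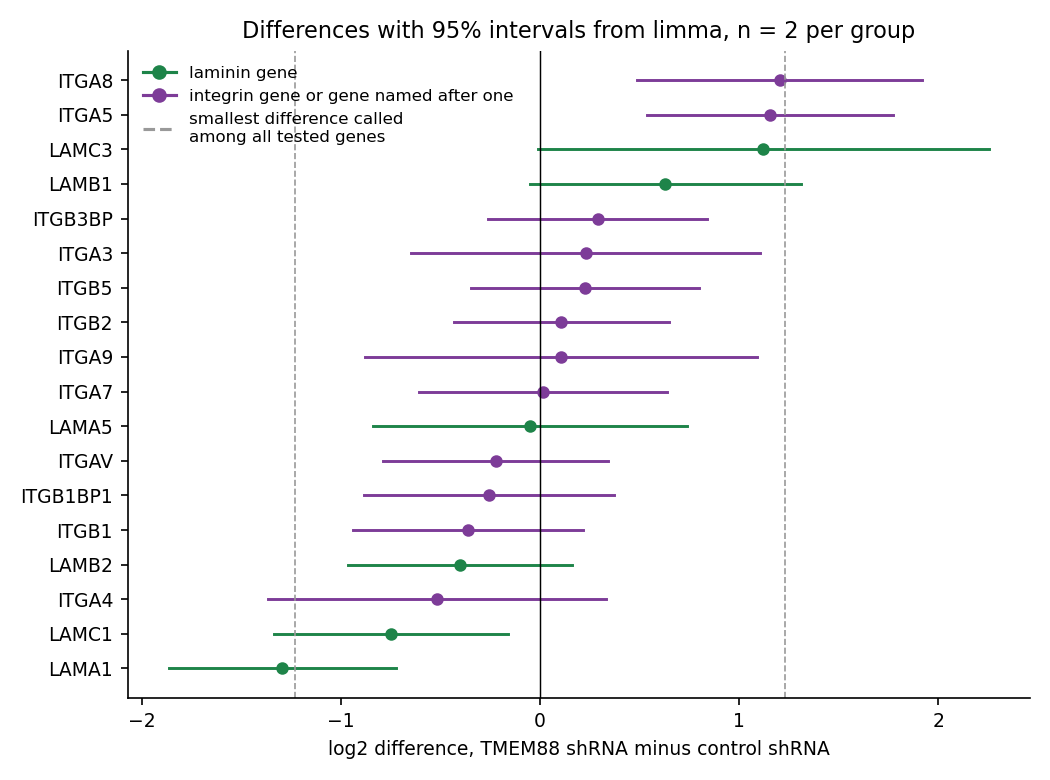
Log2 difference, TMEM88 shRNA minus control shRNA, of the 18 tested genes, ordered by size, with 95% intervals from limma (n = 2 per group); green marks laminin genes and purple integrin genes and genes named after one, and dashed lines mark the smallest difference called among all tested genes, 1.23 on the log2 scale. LAMA1 at -1.30 lies past the dashed line and did not pass, with an adjusted p of 0.0524, and the intervals of LAMA1, LAMC1, ITGA5 and ITGA8 leave out 0.

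A further comparison asked whether the hairpins differed. Against the controls, no tested member was called in limma with shRNA 691 (lowest adjusted p 0.289, 5 members at an unadjusted p under 0.05) or with shRNA 94 (lowest adjusted p 0.287, 3 members). Over all genes 0.867% and 0.482% were called, and 8.95% and 8.61% had an unadjusted p under 0.05. ITGA8 is in both member counts and adds nothing to them, since the TMEM88 shRNA arrays alone brought it into the test. Both comparisons share the same control arrays, so like signs are no separate support. Between the hairpins, limma called none of all 10377 genes, with 98 (0.944%) at an unadjusted p under 0.05, none of them a member. The largest member difference between hairpins was that of LAMC3, 1.01 on the log2 scale with an interval from -0.37 to 2.38. For LAMA1 this difference was 0.17, with an interval from -0.88 to 1.22, which leaves room for a difference between hairpins of up to 1.22 on the log2 scale.

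Partners of integrins and laminins were counted in the same comparison, where 1.98% of all genes were called. Of 13 tested genes for other basement membrane proteins 1 was called, FRAS1, lower by a log2 difference of -1.37 ± 0.24 (limma adjusted p = 0.0436). It encodes a basement membrane protein of embryonic epithelia, and its levels were 8.07 in control 1 and 8.36 in control 2, against 6.77 under hairpin 691 and 6.93 under hairpin 94. The median difference over this list was 0.55, with 10 of 13 positive. Over all genes the median was 0.00, with 5203 of 10377 positive. NTN4, 1 of the 10, was detected on no control and entered the test through the TMEM88 shRNA arrays alone. Of 23 genes for other integrin ligands with a probe, 11 were detected on no array, among them FN1 (fibronectin) and VTN (vitronectin). Missing detection of a probe does not show that these genes were silent. Of the 11 tested ones 1 was called, TNC. TNC, which encodes tenascin C, a matrix protein that binds several integrins, was lower by a log2 difference of -2.86 ± 0.26 (limma adjusted p = 0.0057). Its levels were 10.24 in control 1 and 9.78 in control 2, against 7.23 under hairpin 691 and 7.08 under hairpin 94, far apart between groups. The median over the ligands was 0.09.

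None of 29 tested genes for proteins on the cytoplasmic side of integrins was called in limma, and their median difference was 0.06. FERMT2, encoding the activator kindlin 2, had levels of 12.09 in control 1 and 11.82 in control 2, against 12.77 under hairpin 691 and 12.62 under hairpin 94 (log2 difference 0.75 ± 0.24, limma adjusted p = 0.175). ILK, encoding a scaffold kinase that binds beta tails, had a difference of -0.06 ± 0.23, and CRKL, encoding an adaptor, 0.06 ± 0.22.

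The labelled stage and other cell types were checked by their markers. Of 12 tested markers of cardiovascular progenitors and heart, 6 were called, all lower (PDGFRA, HAND2, MEF2C, MYL7, MYL4 and MYH6), and their summed linear level was 13509 to 17384 in the controls and 10104 to 10637 with the TMEM88 hairpins. The list was mixed: 4 of the 12 had a positive difference, KDR (1.20 ± 0.69), NKX2-5 (0.97 ± 0.42), HAND1 (0.71 ± 0.50) and ISL1 (0.03 ± 0.26), and none of them was called. TBX5 and TBX20 of this list were detected on no array. Of 7 markers of the primitive streak and nascent mesoderm on the array, 3 were tested and called higher (EOMES, MESP1 and SP5), with a summed level of 469 to 578 in the controls against 4525 to 5925. TBXT, MESP2 and TBX6 of that list were detected on no array. Of 5 paraxial mesoderm markers 3 were called higher (849 to 930 against 2254 to 3015), of 5 neural ectoderm markers 3 (980 to 1199 against 3778 to 4020), and of 8 endoderm markers 1 (1014 to 1736 against 3679 to 3941). The neural markers SOX1 and PAX6 were detected on no array. Of 7 smooth muscle and fibroblast markers 2 were called lower, ACTA2 and LUM (6723 to 7122 against 4277 to 5989), and of 3 tested leukocyte and blood markers 1, the embryonic globin HBE1 (1168 to 1368 against 323 to 338). Both lists were mixed. The differences of TAGLN (0.11 ± 0.33) and PDGFRB (0.82 ± 0.48) were positive, as were those of CD34 (0.82 ± 0.27) and ITGAE (0.04 ± 0.24) among the blood markers. MEF2C, LUM, COL3A1 (smooth muscle and fibroblasts) and HBE1 were detected on both controls and on neither TMEM88 shRNA array. The reverse held for TCF15 (paraxial mesoderm), CER1 and TTR (endoderm) and CD34 (blood), which were detected on neither control. A single group brought each of these genes into the test, which favours a difference in that direction. None of 7 epithelial markers was called, all with a positive difference (15288 to 16707 against 19949 to 21127), nor any of 3 endothelial ones (668 to 1042 against 2119 to 3102). The endothelial list was mixed, with VWF at 1.88 ± 0.34, SOX18 at 1.32 ± 0.28 and TEK at -0.14 ± 0.28. VWF had the highest level of them on every array and made up most of the sum. The endothelial markers PECAM1 and CDH5 were detected on no array. Nor was any of 6 pluripotency markers called, all with a positive difference (10492 to 11333 against 11862 to 16625), or any of 4 trophoblast and amnion markers (3556 to 5108 against 3950 to 4634). Also undetected on all arrays were MSGN1 and MEOX1 (paraxial mesoderm), AFP (endoderm), MYH11 and DCN (smooth muscle and fibroblasts), NANOG (pluripotency), PTPRC (leukocytes), KRT7 (trophoblast and amnion) and the endothelial markers TIE1, ESAM and CLDN5. The part of these shifts in the differences of LAMA1, LAMC1, ITGA5 and ITGA8 was not tested.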

How the data were processed

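Biotinylated cRNA of 4 RUES2 samples was hybridised to 4 Illumina arrays, per the labels. For 47322 probes the deposited scanner file holds a linear intensity without normalization, and next to it a detection p-value, per the file headers. A second deposited file holds log2 values of these arrays, all with a median of 7.02. They lay within 0.158 of quantile-normalized log2 signals, and the method behind them is not given in the sources. The submitters' processing notes name lumi and limma 3.12.3 without saying what each did.

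The neqc function of limma 3.58.1 (R 4.3.3) corrected the background, with negative controls inferred from detection p-values and an offset of 16, and normalized the arrays by quantiles. Symbols came from the platform annotation, where 30113 probes had 1 gene symbol, 8 several and 17201 none, and 30074 matched RefSeq genes of GRCh38.p14. Of 35 members, 18 had a probe detected (p under 0.01) on 2 or more arrays. All 10377 such genes were fitted on the log2 scale by lmFit and eBayes (2-sided). P-values were adjusted over all of them by the Benjamini-Hochberg method, and 0.05 was the threshold. There were 2 residual and 4.84 prior degrees of freedom. Single hairpins used 3 groups and 1 residual degree of freedom, a lone array being assumed to vary like the controls. Intervals are 95%.

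Named genes are all members, called members of 3 lists of partners (or the 3 with the brightest probes) and marker genes of cell types. Members and lists were chosen with earlier results of these data known. The labels pair no control with a TMEM88 shRNA sample, so no pairing was used. The limma fits, but not the background correction, normalization, detection filter or choice of probe, were tested on simulated data. Alternatives covered background, normalization, the deposited matrix, detection filter, probes per gene, variance model, threshold and leaving out each array. Figures used matplotlib 3.10.9.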

Additional observations from a re-analysis of the deposited data

Results flagged for a closer look

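Among the members that failed the detection filter, and so stayed outside the main comparison, ITGA2, ITGA2B and ITGA11 were detected with shRNA 691 alone, with signals above both controls. The ITGA2 signal was 162.1 with shRNA 691, against 138.5 and 151.2 in the controls and 131.9 with shRNA 94. The ITGA2B signal was 168.2, against 145.6 and 130.4 in the controls and 139.2 with shRNA 94. The ITGA11 signal was 155.2 with a detection p of 0.00779, against 146.6 and 147.7 in the controls and 137.6 with shRNA 94. Each rests on a single array, the one with the most detected probes (16516, against 16240 with shRNA 94). The share of all probes detected with shRNA 691 alone is not given here. With no detection filter these genes were tested with all others, and no member was called.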

How the results depend on the processing

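The count of called members, 0, became 1 (LAMA1) with no background correction, with the deposited matrix, when detected on all 4 arrays and with the mean of detected probes. It became 2 (LAMA1 and ITGA5) with a variance trend and at an adjusted p under 0.1, and 2 (both LAMA1 probes) when each detected probe was tested. It stayed at 0 with median scaling, a detection p under 0.05, no detection filter and robust variance. Leaving out 1 array gave 0 to 3 members: LAMA1, ITGA5 and ITGA8 without control 1, and LAMA1 and LAMC3 without control 2. ITGA8 was detected on no control array. Over all genes the count of 205 became 19 with no detection filter, 448 at an adjusted p under 0.1, and 50 to 1453 with 1 array left out (1453 without control 1, 548 without control 2, 50 without shRNA 691 and 90 without shRNA 94). With 1 array left out, the spread comes only from the group that still has 2. Leaving out a TMEM88 shRNA array repeats the fit of the other hairpin alone and is no separate check. The causes of these changes were not tested. The counts of 0 members for each hairpin and between hairpins stayed at 0 under every alternative run. Leaving out a control there leaves no residual degree of freedom, so it could not be fitted. Of 229 single values of members under alternatives, 8 changed sign, all with 1 array left out. They belong to ITGA3 (-0.23 to 0.69), ITGA7 (-0.24 to 0.27), ITGA9 (-0.53 to 0.74) and LAMA5 (-0.48 to 0.38). ITGA3, ITGA4, ITGA7, ITGA8 and ITGA9 lie near background on some arrays, so the size of their differences is uncertain.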
